A study of Mus musculus with 17 samples.

Results

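The 10 genes examined here release fat from the lipid droplet of the adipocyte or coat that droplet. They were chosen by name, as lipases and their partners (*Pnpla2*, *Lipe*, *Mgll*, *Abhd5*, *G0s2*), hormonal control (*Adrb3*, *Pde3b*) and droplet proteins (*Plin1*, *Plin4*, *Cidec*), and they are 10 of the 55401 genes in the deposited values. All 10 passed the filter on low values in every fit. RNA was sequenced from whole perigonadal white adipose tissue (pWAT), the fat pad beside the ovary or epididymis, of 5 WT females, 5 U9-KO females, 3 WT males and 4 U9-KO males, each mouse giving 1 library. U9-KO mice are homozygous for a germline deletion of all exons of the long non-coding RNA *U90926*, so every cell type of the body carries it, and WT mice keep the gene. All 17 mice were C57BL/6J, were littermates from heterozygous parents, ate standard chow and were 16 weeks old, and no treatment was part of the design. The paper's cohort did go through a phenotyping screen, which included food withdrawal and a glucose injection for a tolerance test. The comparison of genotypes asks whether the lipolysis and droplet genes move when *U90926* is deleted.

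In the adipocyte, triglyceride is cut in sequence. *Pnpla2* encodes adipose triglyceride lipase (ATGL), which takes off the first fatty acid, *Lipe* encodes hormone-sensitive lipase, which acts on the diglyceride, and *Mgll* encodes monoglyceride lipase, which frees glycerol. ABHD5 switches ATGL on and G0S2 binds and inhibits it. In the resting cell the droplet coat protein perilipin 1 (*Plin1*) holds ABHD5 away from ATGL, and catecholamines acting on the β3-adrenergic receptor (*Adrb3*) raise cyclic AMP, which activates protein kinase A to phosphorylate perilipin 1 and hormone-sensitive lipase. Insulin opposes this through phosphodiesterase 3B (*Pde3b*), which breaks down cyclic AMP. *Cidec* encodes a protein at droplet contacts that lets small droplets merge into the single large one of a white adipocyte, and *Plin4* encodes a perilipin abundant in white fat.

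The sequence before a start site is shown for the 3 droplet proteins and for *G0s2*. Mean levels of the droplet proteins, like those of all 10 members, were higher in males. *G0s2* had the smallest p of the members between genotypes in females and in both sexes together. Each run is the 250 bases before a RefSeq start site on GRCm38.p6, written 5′ to 3′ along the gene. *Cidec* has 2 start sites, and the window of the inner one lies within the annotated gene. The windows of *Plin1*, *Plin4* and *G0s2* begin upstream and run into the annotated gene. Capitals mark matches, on either strand, to TTGCNNAA (a relaxed motif of the C/EBP factors), to the CCAAT box, to the GC box written as GGGCGG, and to the core of the cyclic AMP response element, which reads TGACG.
Plin1, chr7:79732777-79733026, minus strand: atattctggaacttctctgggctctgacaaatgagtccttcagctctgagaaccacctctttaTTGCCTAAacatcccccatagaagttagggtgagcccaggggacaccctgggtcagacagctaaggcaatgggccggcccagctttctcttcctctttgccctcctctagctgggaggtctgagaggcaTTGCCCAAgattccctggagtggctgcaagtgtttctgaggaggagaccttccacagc
Cidec, outer start site, chr6:113435761-113436010, minus strand: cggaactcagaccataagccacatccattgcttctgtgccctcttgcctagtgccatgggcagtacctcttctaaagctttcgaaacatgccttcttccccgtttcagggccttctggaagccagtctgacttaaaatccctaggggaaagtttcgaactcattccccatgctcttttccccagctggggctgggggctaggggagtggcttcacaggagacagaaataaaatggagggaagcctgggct
Cidec, inner start site, chr6:113434765-113435014, minus strand: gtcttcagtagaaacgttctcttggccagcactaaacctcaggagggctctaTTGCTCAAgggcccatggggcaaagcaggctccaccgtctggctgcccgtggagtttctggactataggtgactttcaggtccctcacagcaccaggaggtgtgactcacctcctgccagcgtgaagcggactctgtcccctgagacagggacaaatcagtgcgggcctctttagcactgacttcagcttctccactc
Plin4, chr17:56109783-56110032, minus strand: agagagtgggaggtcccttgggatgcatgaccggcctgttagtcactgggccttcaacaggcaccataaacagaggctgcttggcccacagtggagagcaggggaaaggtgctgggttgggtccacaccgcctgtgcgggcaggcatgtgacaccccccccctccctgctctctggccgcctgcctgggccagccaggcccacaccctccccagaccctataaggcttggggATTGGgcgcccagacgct
G0s2, chr1:193273189-193273438, minus strand: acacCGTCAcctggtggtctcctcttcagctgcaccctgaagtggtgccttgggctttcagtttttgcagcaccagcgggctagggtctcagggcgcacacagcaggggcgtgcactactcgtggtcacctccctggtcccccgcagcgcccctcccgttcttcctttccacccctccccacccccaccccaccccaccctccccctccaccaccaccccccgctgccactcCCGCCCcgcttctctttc
*Plin1* held the C/EBP letters at 2 places and the inner *Cidec* window at 1 place, while the outer *Cidec* window, upstream of the gene, held none of the letters searched, and 9.56% of the 32851 promoter windows of this length held them at least once. *Plin4* held CCAAT, as did 33.8% of all windows, and *G0s2* held a GC box (32.7% of windows) and TGACG (17.8%). The GC box was also found for *Mgll*, *Lipe*, *Pnpla2* and *Abhd5*, and TGACG also for *Abhd5*. RefSeq windows were matched for 8 of the 10 members, in 11 windows, and *Adrb3* and *Pde3b* were not matched. The letters CACGTG (an E-box, 6.02% of windows) were found for *Mgll* and *Lipe*, and neither the strict PPAR element AGGTCANAGGTCA (0.0335% of windows) nor TATAAA (12.4%) was found in the 11 windows. These are matches of letters and not measured binding.

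Depth was estimated at 19700000 to 27600000 reads a library, from scaling factors estimated at 0.757 to 1.23, and normalized counts summed to 20243688 to 28620744. A normalized count is the number of reads assigned to a gene divided by a scaling factor of its library. *U90926* itself was at 0 or 1 normalized count in each of the 17 mice, so its level does not check the genotype labels. The adipocyte markers (9 genes, among them *Adipoq* and *Fabp4*) summed to 248803 to 720663 in every library, and the brown or beige markers (5 genes, *Ucp1* among them) to at most 1068. RNA of the ovary (13 genes, among them *Star* and *Cyp11a1*) was present in the female pads, with sums of 4582 to 38276 in 8 females but 127051 in WT female 4 and 141454 in U9-KO female 1, against 251 to 499 in males. These are bulk tissue values, in which fewer adipocytes and less RNA per adipocyte cannot be told apart.

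The members were among the abundant transcripts of pWAT, and together took 0.63% to 1.06% of normalized counts in females and 1.46% to 1.87% in males. Per kilobase of exon and averaged over the mice, *Cidec* ranked 31st, *Pnpla2* 59th, *Plin4* 60th and *Plin1* 70th of 26230 genes, and *Pde3b* (1056th) and *Abhd5* (2169th) were the lowest of the 10. In WT females the mean level per kilobase was 19557 ± 4737 (SD, n = 5) for *Cidec*, 11206 ± 2183 for *Pnpla2*, 7819 ± 2836 for *Plin1* and 6844 ± 2038 for *Plin4*. It was 740.1 ± 140.3 for *Pde3b* and 334.6 ± 36.0 for *Abhd5*. *Cidec* was first and *Abhd5* last in all 4 groups. Between them part of the order was not resolved, since 6 of 9 neighbouring pairs overlapped in WT females, 8 in U9-KO females, 5 in WT males and 4 in U9-KO males. *Plin4* was 4th in WT females and 5th in U9-KO females, and 2nd in males of both genotypes, at 19571 ± 5244 per kilobase in WT males (n = 3) and 18945 ± 2377 in U9-KO males (n = 4).

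**Figure D1:**
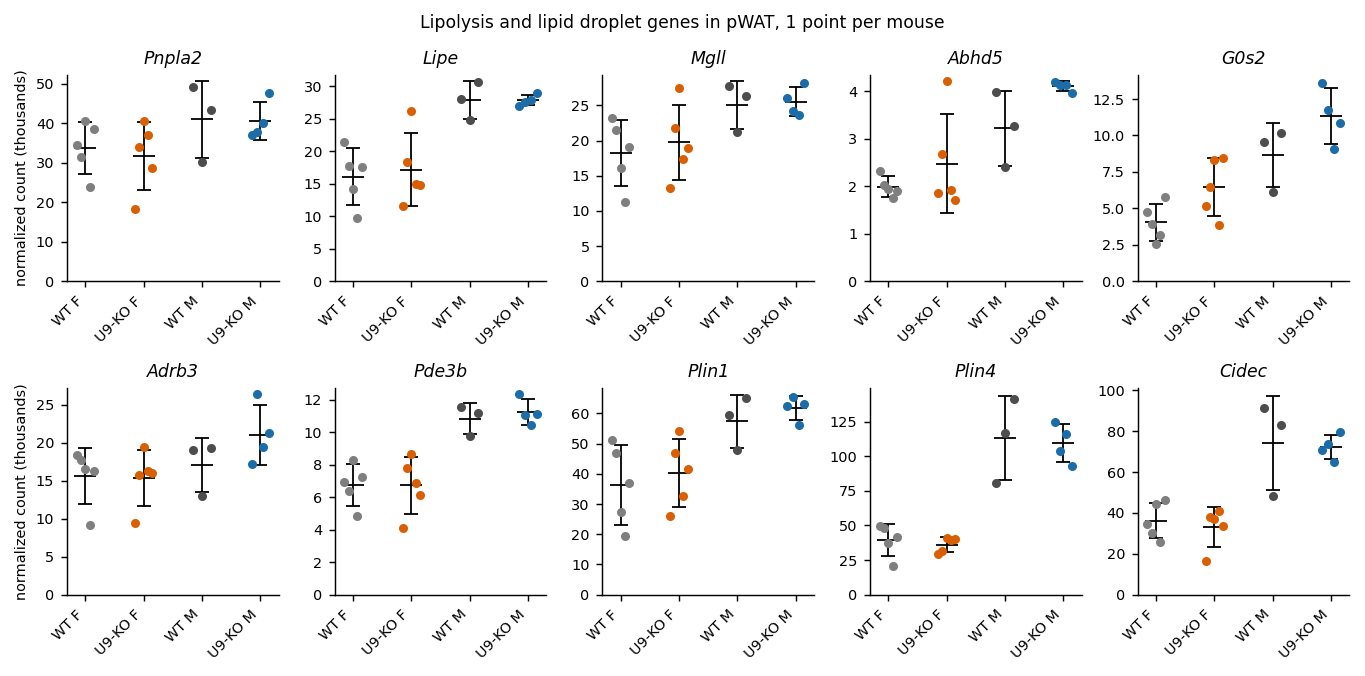
Normalized counts (linear axes from 0, in units of 1000) of the 10 genes, with 1 point per mouse in each of the 4 groups and the mean with its SD in black. Within a sex the WT and U9-KO points overlap for every gene, while for *Plin4* every male (81020 to 141242) lies above every female (20436 to 49786).

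Deletion of *U90926* left none of the 10 genes past the test in either sex. With limma and Benjamini-Hochberg adjustment over all genes, 0 of 10 members had an adjusted p under 0.05 in females, in males, in both sexes together or for the difference between the sexes, and 0% of all genes tested were called in each of these fits. At an unadjusted p under 0.05 there was 1 member in females (*G0s2*; 2.23% of 24825 genes), 1 in males (*Abhd5*; 7.6% of 21930 genes) and 1 in both sexes together (*G0s2*; 4.02% of 26289 genes), and for the difference between the sexes there was 0 (3.46% of genes). The groups of the 2 genotypes overlapped for all 10 members in both sexes, and were apart for 0.238% of all genes in females and 7.6% in males. Leaving out WT male 1, the male fit called 45 genes higher and 26 lower, none of them a member, and with no filter on low values it called 16 genes lower, again no member. By DESeq2 at the same threshold, the paper reported differentially expressed genes within each sex and none with the sexes together. The 0% therefore holds for the limma fits at their main settings. With no filter 2 genes were called lower in females, 1 higher in both sexes together and 3 lower for the difference between the sexes. With no trend in the fit 1 was called lower in females, 1 higher in males and 1 higher in both sexes together. With a pseudocount of 0.5, or no covariate for sex, 1 was called higher in both sexes together. None of these was a member. The median log2 fold change of the members was 0.03 in females, with 5 of 10 above 0, and 0.04 in males, with 9 of 10 above 0. Over all genes tested it was within 0.001 of 0 in both sexes.

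Among the lipases, *Pnpla2* (chr7:141455198-141460743, plus strand) was measured at 34574, 31581, 40625, 23852 and 38575 normalized counts in WT females 1 to 5 and at 18388, 34000, 40471, 36985 and 28739 in U9-KO females 1 to 5. WT males 1 to 3 had 49220, 30194 and 43478, and U9-KO males 1 to 4 had 36975, 37757, 40145 and 47577. The lowest mouse of each female group was the one rich in ovary RNA, and the groups covered each other. The log2 fold change, U9-KO minus WT, was −0.12 (95% interval −0.61 to 0.37) in females and 0.01 (−0.38 to 0.40) in males.

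*Lipe* (chr7:25379527-25398710, minus strand) stood at 21339, 17668, 14170, 9777 and 17581 in WT females and 11642, 18263, 26233, 14884 and 14739 in U9-KO females. In males it was 28057, 24828 and 30610 in WT and 27000, 27620, 27938 and 28935 in U9-KO. The U9-KO males lay close together, within the range of the WT males. Females differed by 0.08 on the log2 scale (−0.45 to 0.62). Males differed by 0.01 (−0.23 to 0.24), an interval that in folds ran from 0.855 to 1.18.

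*Mgll* (chr6:88724412-88828360, plus strand) ranged from 11233 to 23159 with a median of 19022 in WT females and from 13239 to 27504 with a median of 18941 in U9-KO females. It ranged from 21244 to 27757 in WT males and from 23620 to 28214 in U9-KO males. As for *Lipe*, the genotypes lay over each other in both sexes. U9-KO minus WT, the log2 difference was 0.12 in females (−0.38 to 0.62) and 0.03 in males (−0.24 to 0.30).

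The activator *Abhd5* (chr9:122351608-122381524, plus strand) was measured at 2330, 2028, 1953, 1750 and 1902 in WT females and at 1853, 2689, 4212, 1915 and 1716 in U9-KO females. In males it was 3989, 2409 and 3263 in WT and 4202, 4132, 4123 and 3963 in U9-KO. In females 2 of 5 U9-KO values lay within the WT range, 1 below it and 2 above it, with U9-KO female 3 far above the rest. In males 3 of 4 U9-KO values were above every WT value, and the fourth was below WT male 1. U9-KO minus WT came to 0.23 on the log2 scale (SE 0.22, adjusted p = 1 by limma) in females and 0.38 (SE 0.14, unadjusted p = 0.0224, adjusted p = 0.614 by limma) in males. U9-KO female 3, which also had the most normalized counts of all mice (28620744), decided most of the female value, which was 0.02 without it, and the male value was 0.19 without WT male 2.

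*G0s2* (chr1:193272161-193273217, minus strand), the inhibitor of ATGL, had the smallest p of the members in females and in both sexes together. Its normalized counts were 4784, 3955, 2585, 3193 and 5757 in WT females and 5146, 6480, 8343, 3885 and 8464 in U9-KO females. In males they were 9582, 6125 and 10188 in WT and 13627, 11764, 9072 and 10846 in U9-KO. In females 3 of 5 U9-KO mice were above every WT mouse, and in males 3 of 4 were, while U9-KO females 1 and 4 and U9-KO male 3 lay inside the WT range. Females averaged 4055 ± 1259 (SD, n = 5) with *U90926* and 6464 ± 1995 (n = 5) without it, and males 8632 ± 2192 (n = 3) and 11327 ± 1897 (n = 4), respectively.

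For *G0s2* the log2 fold change was 0.67 (SE 0.26, unadjusted p = 0.0232, adjusted p = 1 by limma) in females and 0.41 (SE 0.19, unadjusted p = 0.0502, adjusted p = 0.654) in males. In both sexes together it was 0.56 (SE 0.18, 95% interval 0.19 to 0.94), with an unadjusted p of 0.00511 that ranked 65th of 26289 genes and an adjusted p of 0.938. The difference therefore did not pass the test across all genes. It stayed above 0 when any 1 mouse was left out, at 0.52 to 0.84 in females, 0.18 to 0.55 in males and 0.47 to 0.65 in both sexes. In males the value fell from 0.41 to 0.18 without WT male 2. Without the pair of females rich in ovary RNA the female value was 0.66 (SE 0.30, unadjusted p = 0.0509). The genotype effect in males minus that in females was −0.26 (95% interval −1.03 to 0.52), and it was −0.49 without WT male 2 and −0.11 without WT female 3. The mean log2 level of 6 lipogenic enzymes (*Fasn*, *Acaca*, *Acly*, *Scd1*, *Elovl6*, *Me1*), which make fat, also had a higher mean in U9-KO mice, at 14.90 in WT females, 16.02 in U9-KO females, 14.51 in WT males and 15.26 in U9-KO males. Its ranges overlapped, at 12.9 to 16.5 in WT and 13.25 to 18.1 in U9-KO females. In males they were 13.78 to 15.49 in WT and 15.14 to 15.45 in U9-KO. Summed normalized counts of the 6 enzymes did not go the same way in males. Their median was 939279 in WT and 909483 in U9-KO males, and 381210 in WT and 1016760 in U9-KO females. Neither the genotype difference of the mean log2 level nor the part of that level in the *G0s2* values was tested.

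The level of the inhibitor relative to its lipase was compared within each library, where the scaling cancels. The log2 ratio of *G0s2* to *Pnpla2* averaged −3.09 ± 0.50 (SD) over 5 WT females and −2.30 ± 0.59 over 5 U9-KO females, a 1.73-fold higher ratio in U9-KO. The two-sided exact permutation p was 0.0476, where 5 against 5 mice can reach 0.00794, and the p adjusted over the 4 ratio tests made was 0.190. In males the ratio was −2.25 ± 0.14 in WT (n = 3) and −1.85 ± 0.35 in U9-KO (n = 4), 1.32-fold higher (exact permutation p = 0.171, smallest p possible 0.0571), a log2 difference of 0.40 that was 0.26 without U9-KO male 1. The genotypes overlapped in both sexes, neither difference passed the adjusted test, and 9 of the 10 fits that left out a female gave an unadjusted p above 0.05.

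**Figure D2:**
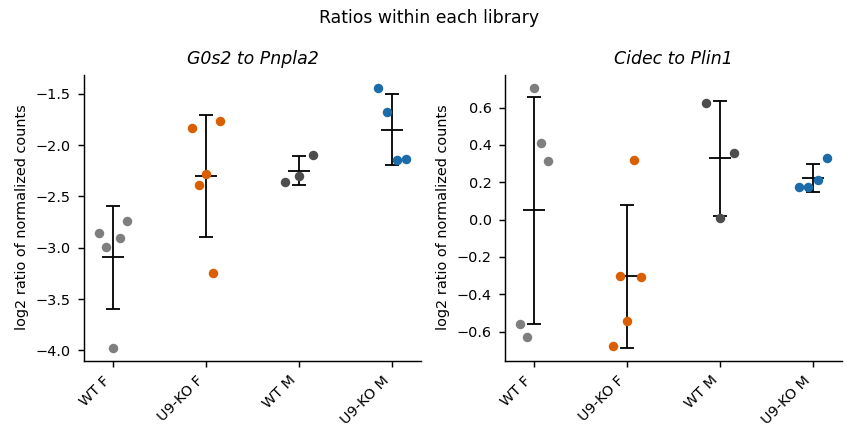
Log2 ratio of *G0s2* to *Pnpla2* and of *Cidec* to *Plin1* normalized counts within each library, with 1 point per mouse and the mean with its SD in black. The *G0s2* to *Pnpla2* ratio averages −3.09 in WT and −2.30 in U9-KO females with overlapping points, and WT female 3 is lowest at −3.97.

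Hormonal control showed no call. *Adrb3* (chr8:27225776-27250616, minus strand) was at 18400, 17683, 16533, 9206 and 16297 in WT females and at 9388, 15735, 19403, 16236 and 16029 in U9-KO females, so that 1 mouse of each genotype, again the one rich in ovary RNA, was far below the other 4. In males it was 19042, 12967 and 19263 in WT and 17141, 26369, 19386 and 21336 in U9-KO, and 3 of 4 U9-KO mice were above every WT mouse. Its log2 fold change was −0.02 (−0.52 to 0.47) in females and 0.31 (−0.09 to 0.70; unadjusted p = 0.112, adjusted p = 0.692 by limma) in males, where it was 0.12 without WT male 2. *Pde3b* (chr7:114415281-114539251, plus strand) ranged from 4825 to 8303 in WT and from 4113 to 8653 in U9-KO females, and from 9743 to 11532 in WT and from 10459 to 12311 in U9-KO males. Its log2 fold change was −0.03 in females (−0.47 to 0.41) and 0.05 in males (−0.16 to 0.26).

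The droplet proteins gave overlapping groups as well. *Plin1* (chr7:79720218-79732903, minus strand) was at 51105, 46815, 27199, 19511 and 37113 in WT females and at 26165, 46957, 54092, 32634 and 41597 in U9-KO females. In males it was 59349, 47893 and 64981 in WT and 62558, 65501, 56279 and 63134 in U9-KO. On the log2 scale U9-KO exceeded WT by 0.19 in females (−0.43 to 0.81), smaller than the SD of 0.57 in WT and 0.42 in U9-KO females. In males the difference was 0.12 (−0.20 to 0.43), with an SD of 0.23 in WT and 0.09 in U9-KO.

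*Plin4* (chr17:56100591-56109803, minus strand) was at 49786, 48307, 37610, 20436 and 41563 in WT females and at 29140, 31289, 41177, 39258 and 40439 in U9-KO females. In males it was 81020, 116919 and 141242 in WT and 124476, 104025, 116126 and 93150 in U9-KO, all inside the WT range. The log2 fold change was −0.07 in females (−0.59 to 0.44) and −0.02 in males (−0.49 to 0.45). *Cidec* (chr6:113424634-113435760, minus strand) was at 34688, 30243, 44416, 25973 and 46166 in WT females and at 16338, 38087, 37118, 40725 and 33564 in U9-KO females. WT males had 91465, 48181 and 83126, and U9-KO males had 70667, 74008, 65149 and 79422, again inside the WT range. The log2 fold change was −0.16 in females (−0.74 to 0.41) and 0.01 in males (−0.46 to 0.49). The log2 ratio of *Cidec* to *Plin1* was 0.05 ± 0.61 in WT and −0.30 ± 0.38 in U9-KO females (exact permutation p = 0.317, n = 5 each; the difference of −0.35 was −0.19 without WT female 3), and 0.33 ± 0.31 in WT (n = 3) and 0.22 ± 0.07 in U9-KO males (n = 4; exact permutation p = 0.571).

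**Figure D3:**
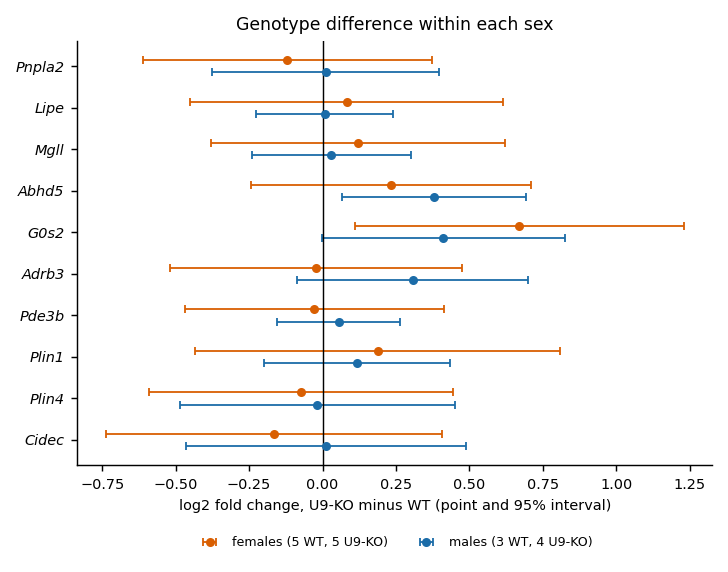
Log2 fold change, U9-KO minus WT, of each gene in females and in males with its 95% interval from limma; the vertical line marks 0. In females only the interval of *G0s2* (0.67, from 0.11 to 1.23) leaves out 0 and in males only that of *Abhd5* (0.38, from 0.07 to 0.69), both before adjustment over all genes.

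Some annotated genes overlap members on the other strand, and whether the counting used strand is not given in the sources used here. They were low beside the members, at 900 to 3631 normalized counts for *Gm45470* over *Adrb3*, 1105 to 1525 for *Hdgfl2* over *Plin4* and 49 to 191 for *Lamb3* over *G0s2*.

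The rest of the pathway was read through 37 further genes of lipolytic signalling and of the droplet. None of the 37 in females or of the 36 tested in males passed the test between genotypes. The smallest p in females belonged to *Cidea*, a droplet fusion protein best known from brown fat, at 7 to 46 normalized counts in WT and 18 to 118 in U9-KO (log2 fold change 1.60, SE 0.58, unadjusted p = 0.0175, adjusted p = 1 by limma). It also had the smallest p in both sexes together (1.16, SE 0.46, adjusted p = 0.938). In males the smallest p was that of *Plin2*, the coat protein of small droplets, at 6075, 4546 and 5103 in WT and 7235, 6952, 6569 and 6459 in U9-KO. Every U9-KO male was above every WT male. Of the 36 list genes tested, 2 were apart in this direction and 1 in the other. The genotypes were apart in males for 7.6% of all genes. The log2 fold change of *Plin2*, 0.39 (SE 0.10, unadjusted p = 0.00375), had an adjusted p of 0.612 by limma. For the difference between the sexes the smallest p was that of *Hcar1*, the lactate receptor that restrains lipolysis (0.92, SE 0.41, adjusted p = 1).

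Between the sexes the members differed widely. After all 17 libraries were put on 1 scale, each of the 10 genes had a higher mean in males than in females in both genotypes. The median log2 difference, male minus female, of the members was 0.84 in WT and 0.88 in U9-KO mice, against −0.04 over all genes in either fit. In WT mice 6 of 10 members were called higher and 0 lower, where 21.1% of the 23614 genes tested were called, 8.61% higher. In U9-KO mice 7 of 10 were called higher and 0 lower, where 25.3% of 23856 genes were called, 10.1% higher. Every male was above every female for 8 of 10 members in each genotype, as for 12.9% of all genes in WT and 10.2% in U9-KO mice. The 2 genotypes share no mice, so the contrast was measured in separate animals. Both fits share the scaling of all 17 libraries, and each female group held a mouse rich in ovary RNA.

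*Plin4* had the largest difference of the members in each genotype. It was 3.17-fold higher in males in WT mice (log2 1.66, SE 0.31, adjusted p = 0.00549 by limma) and 3.28-fold higher in U9-KO mice (log2 1.71, SE 0.17, adjusted p = 7.41e-05). *G0s2* was 2.35-fold higher in WT males (log2 1.23, adjusted p = 0.00965) and 1.96-fold higher in U9-KO males (log2 0.97, adjusted p = 0.00894). *Cidec* was 2.19-fold higher (log2 1.13, adjusted p = 0.0154) and 2.47-fold higher (log2 1.30, adjusted p = 0.00372), respectively. The sexes did not overlap for these 3 genes in either genotype.

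*Lipe*, *Abhd5* and *Pde3b* were also called in both genotypes, with log2 differences of 0.95, 0.79 and 0.82 in WT and of 0.87, 0.93 and 0.90 in U9-KO mice. *Plin1* was at 0.85 (adjusted p = 0.0728 by limma) in WT and at 0.78 (adjusted p = 0.0185) in U9-KO mice, past the threshold in the latter. *Pnpla2* (0.39 and 0.52), *Mgll* (0.62 and 0.52) and *Adrb3* (0.27 and 0.59) did not pass in either genotype, with adjusted p from 0.0527 to 0.459. In WT mice *Adrb3* was at 0.09 without WT female 4 and *Pnpla2* at 0.25 without WT male 1 and 0.59 without WT male 2, and in U9-KO mice *Pnpla2* was at 0.33 without U9-KO female 1. *Adrb3* was called in U9-KO mice under TMM scaling (adjusted p = 0.0457 by limma). No member passed the test for a difference of the genotype effect between the sexes, with adjusted p = 1 by limma for all 10.

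**Figure D4:**
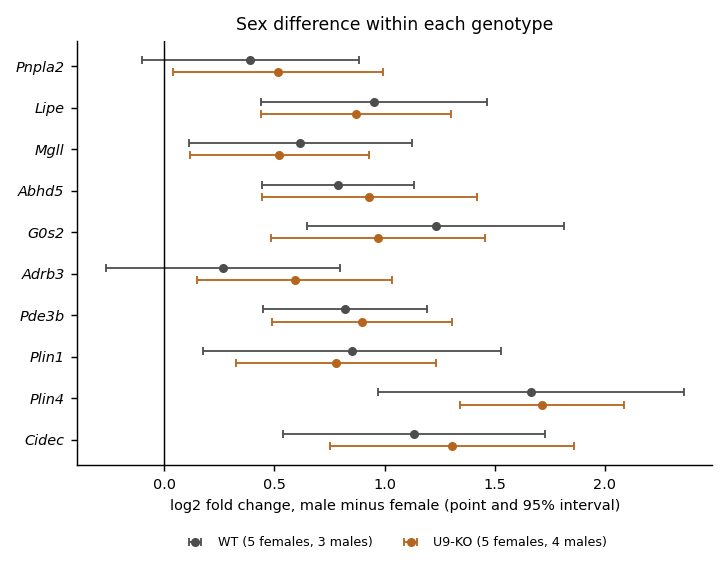
Log2 fold change, male minus female, of each gene in WT and in U9-KO mice with its 95% interval from limma, after scaling all 17 libraries together; the vertical line marks 0. All 20 points lie above 0, from 0.27 for *Adrb3* to 1.66 for *Plin4* in WT mice and from 0.52 for *Pnpla2* to 1.71 for *Plin4* in U9-KO mice.

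Other RNA moved with sex as well. The mean log2 level of the 9 adipocyte markers was 13.87 in WT females and 14.08 in those without *U90926*, and 14.79 in WT and 14.85 in U9-KO males, with none of the 9 at 0. The ovary sums were 4582 to 141454 in females and 251 to 499 in males, macrophage markers (5 genes) summed to 3993 to 8221 in females and 8652 to 17800 in males, and blood markers (3 genes) to 8260 to 30107 in females and 34863 to 88241 in males. With the adipocyte marker level as a covariate, 0 members were called in WT mice, where 314 of 23614 genes were called higher and 711 lower. In U9-KO mice 1 was called (*Plin4*, log2 1.55), where 535 of 23856 genes were called higher and 859 lower. Without the covariate 2033 genes were called higher and 2946 lower in WT, and 2404 and 3632 in U9-KO mice. The adipocyte marker level and sex go together in these mice, and the part of cell makeup in the sex difference cannot be told apart. Without WT male 3 the WT fit called 3 members (*Abhd5*, *Pde3b*, *Plin4*), and over all 23297 genes it called 910 higher and 1746 lower.

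The sex difference did not extend evenly over the pathway list. In WT mice 6 of 36 further genes were called higher in males and 4 lower, where 8.61% of all genes were called higher and 21.1% in either direction, with a median log2 difference of 0.09. With the adipocyte markers as a covariate 1 was called higher and 1 lower (314 and 711 over all genes). On the values as deposited 6 were called higher and 7 lower (1292 and 3828 over all genes). Among those called higher with the smallest p were *Prkar2b*, the regulatory subunit of protein kinase A abundant in fat (0.92, adjusted p = 0.000936 by limma), *Aqp7*, the channel through which glycerol leaves the adipocyte (1.05, adjusted p = 0.00563), and *Cav1*, the caveolar coat protein (1.37, adjusted p = 0.00854). *Pde4d*, another phosphodiesterase of cyclic AMP (−0.92, adjusted p = 0.00806), *Npr1*, the receptor through which natriuretic peptides drive lipolysis (−0.42, adjusted p = 0.0144), and *Hcar1* (−0.89, adjusted p = 0.0289) were lower in males. The call of *Hcar1* was lost in 4 of 8 fits that left out a mouse (WT females 3 and 5, WT males 2 and 3), and in U9-KO mice its difference was 0.03 (95% interval −0.58 to 0.63). By role, 3 of 11 droplet proteins, 2 of 9 cyclic AMP genes, 1 of 6 lipases and glycerol release genes and 0 of 10 receptors and G proteins were called higher, and 3 receptors and 1 cyclic AMP gene lower. In U9-KO mice 9 of 36 were called higher and 3 lower, where 10.1% of all genes were called higher and 25.3% in either direction. With the adipocyte markers as a covariate 2 of the list were called higher and 4 lower in U9-KO mice (535 and 859 over all genes). The smallest p in U9-KO mice was that of *Npr3*, the clearance receptor of natriuretic peptides (log2 2.03, adjusted p = 4.44e-05 by limma). Without WT male 3 the WT fit called 5 of the list, and over all genes 910 higher and 1746 lower.

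Within a group the levels of most members varied together from mouse to mouse, *Plin4* in males being the exception. Taking each log2 level as its deviation from the mean of its sex and genotype group, all 45 pairs of members were positively correlated over the 10 females (median r = 0.67) and 38 of 45 over the 7 males (median r = 0.72). All 7 negative pairs in males held *Plin4*, the lowest with *Pnpla2* (r = −0.50). These points share library and scaling, and they are given as a description. WT female 4 was lowest of its group for 9 of 10 members and U9-KO female 1 for 8 of 10, and WT male 2 was lowest for 9 of 10. *Mgll* (r = 0.96) and *Lipe* (r = 0.94) followed the mean of the members most closely over the 17 mice, and *Plin4* (r = 0.62) and *G0s2* (r = 0.61) least.

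The genes outside the list most like that mean, of 12279 with at least 100 normalized counts on average, were *Pla2g16*, an adipocyte phospholipase (r = 0.97), the adipokine gene *Adipoq* (0.97), *Eif4ebp1*, a repressor of translation (0.97), *Nr1h3*, the nuclear receptor LXRα (0.96), and *Ptpa*, an activator of protein phosphatase 2A (0.96), over 17 mice. *Eif4ebp1* lies 9713 bases from *Adrb3*, at chr8:27260329-27276674 on the plus strand.

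The members were also set against lipogenesis, the making of fat, as the mean log2 level of the 6 enzymes. The relations pool the genotypes. The mean of this level was higher in U9-KO than in WT mice in both sexes, with overlapping ranges, and that difference was not tested. In males the level was highest in WT male 1 (15.49). In females this level ran from 12.9 in WT female 3 to 18.1 in U9-KO female 3, where the 6 enzymes summed to 2883303 normalized counts. Pearson's r over the 10 females was 0.73 for *G0s2* (permutation p = 0.0184; Spearman's rho 0.70, permutation p = 0.0304), 0.68 for *Plin1* (permutation p = 0.0349; rho 0.66, permutation p = 0.0440), 0.68 for *Abhd5* (permutation p = 0.0172; rho 0.53, permutation p = 0.125) and 0.61 for both *Lipe* and *Mgll*. It was −0.12 for *Pnpla2*, −0.30 for *Cidec* and 0.05 for *Pde3b*. None of the 20 relations, 10 in each sex, passed after Benjamini-Hochberg adjustment, the smallest adjusted permutation p being 0.161. Without the 2 females farthest from the median level (WT female 3 and U9-KO female 4), r was 0.54 for *G0s2*, 0.70 for *Plin1* and 0.81 for *Abhd5*.

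Without the pair of ovary-rich females r was 0.97 for *Plin1*, 0.96 for *Mgll*, 0.85 for *Lipe*, 0.71 for *G0s2* and 0.74 for *Abhd5*, and −0.22 for *Pnpla2* and −0.57 for *Cidec* (n = 8, chosen after the values were seen, so no test is given). In the 7 males *Abhd5* had r = 0.95 (permutation p = 0.0242, adjusted p = 0.161; rho 0.68, permutation p = 0.110), which rested on WT males 2 and 3, since r was −0.03 without them.

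**Figure D5:**
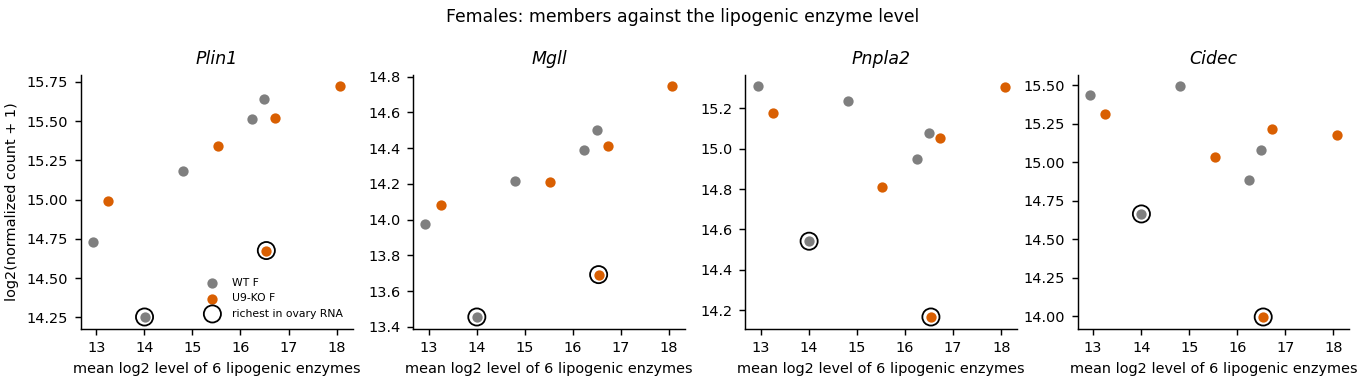
Log2(normalized count + 1) of *Plin1*, *Mgll*, *Pnpla2* and *Cidec* against the mean log2 level of 6 lipogenic enzymes in the 10 females, with 1 point per mouse and rings around the pair richest in ovary RNA. Away from the rings *Plin1* and *Mgll* are higher in females with more of the enzymes (r = 0.97 and 0.96 over 8 mice), while *Pnpla2* (−0.22) and *Cidec* (−0.57) do not.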

How the data were processed

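Stranded paired reads came from whole pWAT RNA of 17 mice. According to the methods and the labels, the authors trimmed reads with trim_galore, aligned them to GRCm38 with STAR (2.7.3a in the submitters' processing notes), counted them per gene with summarizeOverlaps (Union mode) and normalized them with DESeq2 (1.28.1). The deposited values are a score, read counts divided by a size factor per library and rounded to whole numbers, with factors that appear to be set in each sex separately. The factors were estimated from the gaps between small values (0.757 to 1.23). The annotation and the strand setting of the counting are not given in the sources used here. The 17 columns of a series-wide table that repeat these values were not used, since 2 male columns carry other replicate numbers than the sample labels.

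GENCODE M21 named 55141 of 55401 identifiers. Fits used limma 3.58.1 (R 4.3.3), lmFit and eBayes with trend, on log2(normalized count + 1), so fold changes are on that scale. Each fit kept genes whose counts summed to 10 or more across its mice, and Benjamini-Hochberg adjusted p under 0.05 was called. For sex contrasts each library was first divided by its median ratio to the geometric mean of all 17. Under the values as deposited, the WT sex contrast moved its median by −0.12 (log2), and called 1292 genes higher and 3828 lower instead of 2033 and 2946. Ratios and correlations used permutation tests in scipy 1.17.1 (Python 3.11.15, numpy 2.4.6, pandas 2.3.3), with 100000 resamples for correlations over 10 mice. Scripts were tested on simulated data.

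Named were the 10 members, in the pathway list any gene called between genotypes, otherwise the gene with the smallest p, and in the WT sex contrast the 3 called genes with the smallest p in each direction, besides the 5 genes most like the members. The members and lists were chosen with earlier results of these data known.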

Additional observations from a re-analysis of the deposited data

Results flagged for a closer look

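A mouse far from the rest of its group was looked for with Dixon's test in the groups of 4 and 5 mice, over the 10 genes and the log2 ratios, and was found in 2 of 36 groups of values, where chance gives 1.8. *Adrb3* was at 9206 normalized counts in WT female 4, against 16297 to 18400 in the other WT females. This mouse had the most ovary RNA of the WT females (127051 normalized counts over 13 genes), and the part of that RNA in the low value was not tested. The log2 ratio of *G0s2* to *Pnpla2* was −3.97 in WT female 3, the lowest of the WT females, and that mouse also had the lowest lipogenic enzyme level of the 10 females (mean log2 12.9).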

How the results depend on the processing

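Between genotypes 0 of 10 members and 0 of the pathway list were called under every alternative fitted (a filter of at least 10 in every mouse, no filter, a pseudocount of 0.5, TMM scaling, no trend, robust empirical Bayes, adipocyte or ovary markers as covariates, all 17 mice in 1 fit, the replicate block, and each mouse left out). Some small values changed sign. With the adipocyte markers as a covariate the log2 fold change, U9-KO minus WT, was −0.098 for *Lipe*, −0.050 for *Mgll* and −0.025 for *Plin1* in females, and −0.13 for *Pnpla2*, −0.047 for *Lipe*, −0.059 for *Mgll* and −0.17 for *Cidec* in males. TMM scaling put *Lipe* at −0.00048 in males. Without the pair of females rich in ovary RNA, chosen after seeing the data, *Pde3b* was at 0.023 in females.

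Same-numbered deviations correlated at −0.48 to 0.22 in females and −0.10 to 0.12 in males. The U9-KO mouse most like a WT mouse had its replicate number for WT males 2 and 3, but not for WT male 1 or any WT female. So few pairs cannot decide whether the replicate numbers pair the mice. With the replicate block 0 members were called in either sex, and in males the log2 fold change was −0.068 for *Pnpla2*, −0.011 for *Lipe*, −0.019 for *Mgll*, 0.056 for *Plin4* and −0.035 for *Cidec*.

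Leaving out 1 mouse gave values on both sides of 0 for *Pnpla2* −0.24 to 0.064, *Lipe* −0.085 to 0.21, *Mgll* −0.041 to 0.26, *Adrb3* −0.20 to 0.14, *Pde3b* −0.14 to 0.14, *Plin1* −0.016 to 0.33, *Plin4* −0.29 to 0.026 and *Cidec* −0.28 to 0.073 in females, and for *Pnpla2* −0.20 to 0.16, *Lipe* −0.073 to 0.078, *Mgll* −0.085 to 0.11, *Pde3b* −0.020 to 0.10, *Plin1* −0.0077 to 0.21, *Plin4* −0.24 to 0.16 and *Cidec* −0.27 to 0.19 in males. For the genotype effect in males minus females, *Abhd5* ran from −0.047 to 0.36. The log2 ratio of *G0s2* to *Pnpla2* in females ran from 0.57 to 1.03 and that of *Cidec* to *Plin1* in males from −0.27 to 0.042.

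With the adipocyte markers as a covariate, the count of members called between the sexes was 0 in WT and 1 in U9-KO mice. Over all genes that fit called 314 higher and 711 lower in WT, and 535 higher and 859 lower in U9-KO mice. Under it *Mgll* (−0.13), *Adrb3* (−0.44) and *Plin1* (−0.18) turned in WT mice and *Pnpla2* (−0.061) and *Mgll* (−0.11) in U9-KO mice. Leaving out 1 mouse, the count of members called ran from 3 (without WT male 3) to 8 (without WT female 1) in WT mice. Over all genes these fits called 910 higher and 1746 lower, and 2166 higher and 3301 lower, respectively. In U9-KO mice the member count ran from 6 (without U9-KO male 1, 2 or 4) to 10 (without U9-KO female 3). Over all genes 1491 to 1699 were called higher where 6 members were, and 3312 where 10 were. The pathway list count in WT mice ran from 5 to 11. That count, 10 in the fit reported, was 2 with the adipocyte markers as a covariate, an alternative added after seeing the data. With 3 WT males, the 95% intervals between genotypes in males leave room for log2 changes of up to 0.82 for *G0s2*, and in females up to 1.23.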
